A study of Mus musculus with 20 samples.

Results

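The subject is the interaction of exercise and tumour on a high-fat diet: whether the difference between a liver tumour and the liver around it was itself different in mice that had run on a treadmill. It was computed from the raw read counts of the 16 high-fat-diet libraries of the 20 in the series, as the tumour minus non-tumour difference of exercised mice less the same difference of non-exercised mice. It draws on 4 groups of 4 libraries, named by the sample titles: non-tumour liver and tumour of non-exercised mice, and non-tumour liver and tumour of exercised mice. All were male wild-type mice of the strain written C56BL/6, killed at 35 weeks. Every group, controls included, had received the carcinogen DMBA (7,12-dimethylbenz(a)anthracene), 50 µL of a 0.5% solution on the dorsal skin at postnatal day 4 to 5, and pups were mixed between litters. Their diet supplied 60 kcal% fat, first through the mother and after weaning directly, and the obese mice weighed over 45 g. Exercised mice ran from the age of 20 weeks, with 5 weeks of training from 10 m/min upward and then 10 weeks at 18 m/min in daily runs of 20 min, 5 days a week. Non-exercised mice stayed in their cages in the same room. All were killed on 1 day, at most 2 h after the last run, so the last run and the weeks of training cannot be told apart.

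The series title names degradation of E2F1 and c-Myc through circadian genes, which sets the genes of first interest. E2F1 is a transcription factor that switches on the genes of DNA replication when a cell enters S phase, and c-Myc drives growth and ribosome production. The circadian clock is a loop in which BMAL1 (Arntl) and CLOCK activate the Per, Cry and Nr1d1 genes, whose products in turn repress BMAL1 and CLOCK or their genes. In liver the clock times lipid, glucose and bile acid metabolism, and its phase responds to feeding and activity. The counts measure mRNA, so degradation of a protein is not measured here.

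Libraries held 16471378 to 20271948 counts assigned to genes, and 14333 genes passed the filter on low counts. Tumours were somewhat deeper. In non-exercised mice non-tumour liver held 16471378 to 18142796 counts and tumours 18171377 to 19824518, without overlap. In exercised mice the ranges were 16809124 to 19513821 and 19240957 to 20271948, with overlap. A gene at 1 CPM (a count scaled to the library total after TMM adjustment between libraries) rested on at least 16.2 counts. Summed CPM of 29 tumour and oncofetal markers was 833 to 1170 in non-tumour liver and 2120 to 6430 in tumours of non-exercised mice. In exercised mice it was 583 to 1340 and 2030 to 6650, so tumours and non-tumour pieces did not overlap in either arm. Hepatocyte genes were abundant in all 16 libraries, and 4 pancreas markers (Prss1, Ctrb1, Cpa1, Amy2a5) were at 0 in all of them. The elastase gene Cela1, looked for with them, was detected. Its means were 13.7 and 42.9 CPM in non-tumour liver and tumours of non-exercised mice. In exercised mice they were 19.2 and 57.6 CPM, and it was called higher in tumours of both arms (edgeR adjusted p = 0.00879 and 0.0115). The tumour libraries numbered 3 of both arms lay nearest to non-tumour liver: on the first principal component, which carried 61.2% of the variance, they scored 12.0 and 5.8, against 36.0 to 95.5 for the other 6 tumours. Values are therefore also given without both. Because the non-tumour pieces of the same mice then stay in the comparison, values without either piece of the mice numbered 3 are given as well. Of the 69 genes named, 66 kept the sign of the interaction without the 2 tumours and all 69 without the 2 mice. Nothing states how many tumours were pooled into a library, and p-values reflect only how much these samples vary.

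No gene passed the test of the interaction: 0 of 14333 genes (0%) had a Benjamini-Hochberg adjusted p under 0.05 by edgeR's quasi-likelihood test, and the smallest adjusted p was 1. At an unadjusted p under 0.05 there were 264 genes (1.84%), 171 with a higher tumour effect in exercised mice (1.19%) and 93 with a lower one (0.649%). Among genes given no interaction in simulated counts, described below, 4.72% had an unadjusted p under 0.05. The 1.84% seen here was below that share. The tumour effect is the tumour minus non-tumour difference on the log2 scale, and the interaction is its value in exercised mice minus its value in non-exercised mice. DESeq2 called 0 genes with 259 at an unadjusted p under 0.05, and limma-voom called 0 with 400. Without both tumour libraries numbered 3 the count was again 0, with 541 at an unadjusted p under 0.05, and without both mice numbered 3 it was 0, with 349. When tumour and non-tumour libraries of the same mouse number were subtracted, the 4 exercised and the 4 non-exercised differences did not overlap for 278 genes (1.94%), 158 of them higher (1.1%) and 120 lower (0.837%) in exercised mice.

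The null count sits beside large tumour effects in both arms. In non-exercised mice 4809 genes differed between tumour and non-tumour liver (33.6%), 2434 higher (17%) and 2375 lower (16.6%) in tumours. In exercised mice 4558 differed (31.8%), 2489 higher (17.4%) and 2069 lower (14.4%). In both arms 3465 genes passed in the same direction (24.2%), and 0 passed in opposite directions. The SD of the tumour effect across genes was 0.92 without and 0.95 with exercise, and that of the interaction was 0.38. Pearson's r between the tumour effects of the arms was 0.918 over genes, which are not independent of each other. The plot of both effects per gene shows this band along the line of equality.

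**Figure D1:**
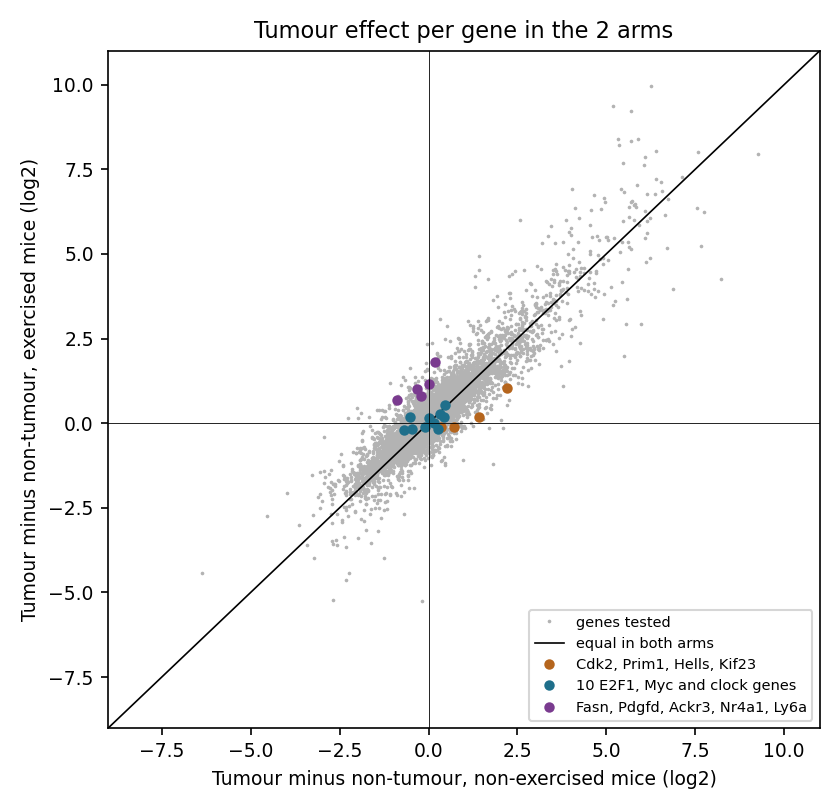
Tumour minus non-tumour log2 difference of each of the 14333 genes in non-exercised mice (x axis) and exercised mice (y axis), with the line of equal effects and 3 sets of named genes in colour. Most genes lie along the line (Pearson r 0.918 across genes), Hells at 1.43 and 0.18 lies below it, and Ackr3 at 0.18 and 1.81 lies above it.

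Genes that passed in 1 arm alone were not shown to differ between the arms. The call was made in non-exercised mice alone for 1344 genes (9.38%), and 97.4% of these had the same sign in exercised mice. Their median absolute tumour effect was 0.49 without and 0.28 with exercise. The call was made in exercised mice alone for 1093 genes (7.63%), of which 97.7% had the same sign in the other arm, with median absolute effects of 0.31 and 0.60 in non-exercised and exercised mice. None of either set passed the interaction test, and 82 (6.1%) and 73 (6.68%) had an unadjusted p under 0.05, against 30 (0.866%) of the genes called in both arms. A call in 1 arm alone favours genes whose effects differ between the arms in the same fit. The higher shares therefore follow from how the sets were chosen.

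The intervals bound what these 16 libraries could show. The standard error of the interaction was 0.24 for the median gene and 0.16 and 0.46 at the quartiles. For 9490 genes (66.2%) the 95% confidence interval of the interaction lay within a 2-fold difference either way, and for 42.7% within 1.5-fold. Among the 5902 genes called in tumours of either arm, 66.6% had an interval within 2-fold. On data simulated from these libraries (14196 genes), the same test recovered 11.9% of genes given a 1.5-fold interaction, 43.3% of those given a 2-fold one and 77.3% of those given a 4-fold one. The simulated counts were drawn for each gene and each library on its own. Pieces of the same mouse were thus not linked, and a gene had the same spread in all groups. There 4.72% of unchanged genes had an unadjusted p under 0.05, against 1.84% of all genes in the real libraries. Why the share was lower in the real libraries was not tested, and the recovered shares may be lower there. In the simulation a 1.5-fold interaction was thus mostly not recovered with 4 mice an arm. The genes given an interaction numbered 67, 67 and 66 at 1.5-, 2- and 4-fold, all at a mean of 1 CPM or more. They were changed together, so the shares may not hold for 1 gene changed alone.

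E2f1 and Myc, the genes of the 2 proteins in the series title, showed no detectable interaction at the mRNA level. E2f1 (ENSMUSG00000027490.18, GRCm39 chr2:154401327-154411812, minus strand) was at 5.29, 5.11, 5.49 and 6.58 CPM in non-tumour liver of non-exercised mice 1 to 4 and at 5.19, 7.18, 5.99 and 6.56 CPM in their tumours. With exercise it was at 5.86, 6.44, 6.70 and 6.60 CPM in non-tumour liver and at 6.20, 7.07, 6.56 and 5.61 CPM in tumours. The groups overlapped throughout, and the interaction was -0.16 ± 0.18 on the log2 scale (SE, 4 libraries a group), with a 95% interval of -0.55 to 0.23. An interaction of over 1.5-fold in either direction thus lay outside the interval of E2f1. Myc (chr15:61857240-61862223, plus strand) was at 3.02, 2.07, 7.51 and 7.32 CPM in non-tumour liver and 3.71, 8.64, 9.15 and 5.51 CPM in tumours of non-exercised mice. It was at 15.4, 8.34, 5.48 and 7.20 CPM in non-tumour liver and 12.5, 12.0, 6.81 and 9.99 CPM in tumours of exercised mice. Non-tumour liver of exercised mouse 1 was the highest of the 16 libraries for Myc. Its interaction was -0.26 ± 0.59 with an interval of -1.52 to 1.01, so a change of over 2-fold downward lies within it, and it was 0.08 without both tumour libraries numbered 3 and -0.38 without both mice numbered 3.

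Of the 10 genes named for the title, 5 had an interaction above 0 and 5 below, and the interval excluded 0 for 2, Cry2 and Nr1d1. None was called. Cry2, a repressor of CLOCK and BMAL1, was at 24.7, 25.5, 22.3 and 25.1 CPM in non-tumour liver of non-exercised mice and at 15, 18.0, 17.9 and 19.6 CPM in their tumours. The exercised arm held 30.1, 30.6, 28.7 and 30.9 CPM in non-tumour liver and 26.6, 28.3, 23.2 and 30.0 CPM in tumours. All 4 tumours of non-exercised mice were below all 4 of their non-tumour pieces, while the ranges of the exercised groups overlapped. Cry2 fell in tumours of non-exercised mice, by 0.47 on the log2 scale (SE 0.09, edgeR adjusted p = 0.00178). The tumour effect in exercised mice was -0.16 ± 0.09 (adjusted p = 0.20). The interaction of 0.31 ± 0.13 had an interval of 0.04 to 0.59 and an unadjusted p of 0.0265 in edgeR, and its adjusted p was 1.

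Nr1d1, which encodes the nuclear receptor REV-ERBα that represses Arntl, was at 51.2, 50.2, 51.6 and 51.8 CPM in non-tumour liver of non-exercised mice and at 24.6, 42.3, 37.7 and 39.0 CPM in their tumours. In the exercised arm it was at 72.1, 102, 61.1 and 66.1 CPM and, in tumours, at 114, 97.8, 56.1 and 71.1 CPM. The non-exercised tumours were all below their non-tumour pieces, and the exercised groups overlapped. The tumour effect was -0.51 ± 0.22 in non-exercised mice (adjusted p = 0.0802) and 0.17 ± 0.21 in exercised mice (adjusted p = 0.584). The interaction was 0.68 ± 0.30, with an interval of 0.03 to 1.32 and an unadjusted p of 0.0411. For both Cry2 and Nr1d1 the differences within mice did not overlap between the arms, as they did not for 1.94% of all genes. Without both tumour libraries numbered 3 the interactions were 0.39 and 0.86, again with an adjusted p of 1.

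The other clock genes showed a wider spread. Dbp, a clock-driven transcription factor, was at 8.11 to 12.1 CPM in non-tumour liver and 3.71 to 9.58 CPM in tumours of non-exercised mice. Exercised mice held 107, 44.8, 20.3 and 52.4 CPM in non-tumour liver and 113, 31.3, 25.3 and 25.8 CPM in tumours. Every exercised library of Dbp was above every non-exercised one in both tissues, and exercised mouse 1 was high in both of its pieces. The interaction of Dbp was 0.50 ± 0.75, and it was -0.33 without the tumour of exercised mouse 1. Arntl was at 24.9 to 26.5 CPM in non-tumour liver and 28.1 to 44.5 CPM in tumours without exercise. With exercise it was at 3.52, 12.3, 19.7 and 13.7 CPM in non-tumour liver and 5.83, 17.6, 21.6 and 27.1 CPM in tumours, lowest in mouse 1. Its interaction was 0.08 ± 0.59. Cry1 had an interaction of -0.44 ± 0.53, Per1 of 0.13 ± 0.40, Per2 of -0.05 ± 0.32 and Per3 of -0.03 ± 0.47, with unadjusted p from 0.426 to 0.956.

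**Figure D2:**
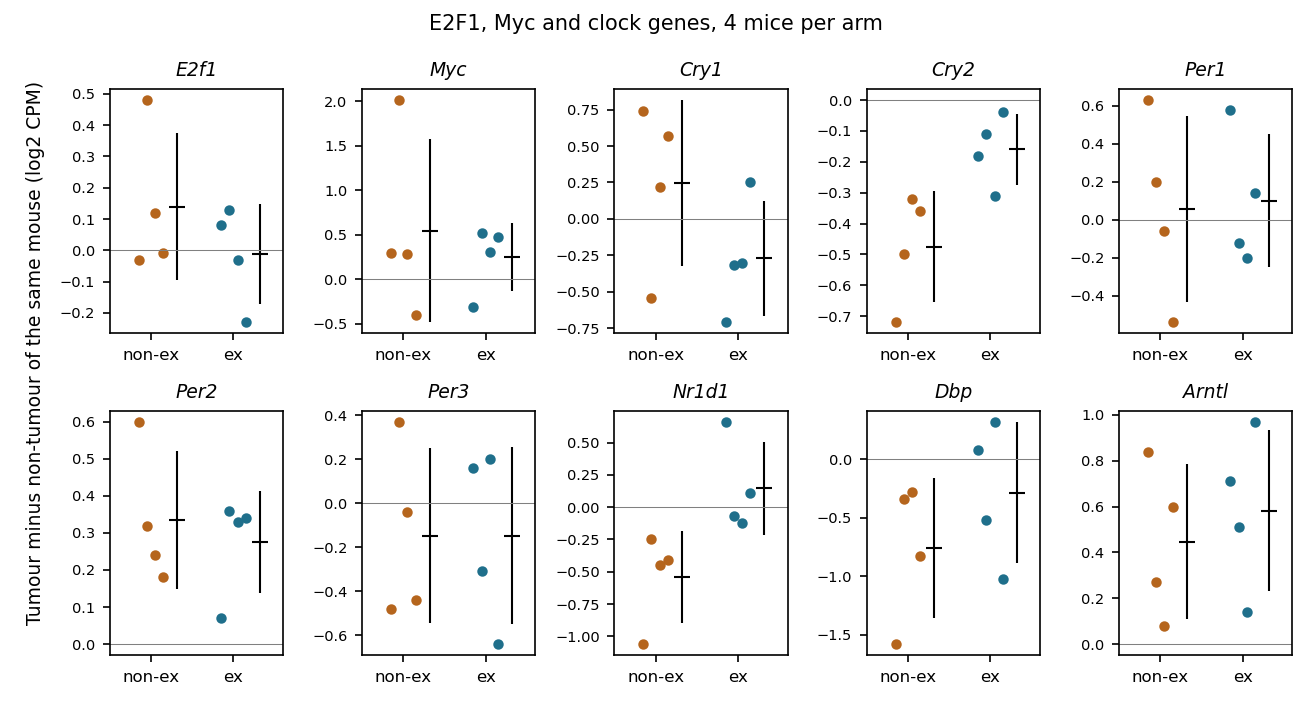
Tumour minus non-tumour difference in log2 CPM of each mouse (points, mice 1 to 4 from left to right) by arm (non-exercised, exercised), with the mean and SD of the 4 mice beside them, for E2f1, Myc and 8 clock genes. The arms overlap for all but Cry2 (-0.72 to -0.32 against -0.31 to -0.04) and Nr1d1 (-1.06 to -0.25 against -0.12 to 0.66).

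Per3 is shown with its promoter because it alone among the clock genes with an entry held the D-box, the site of DBP and its relatives. The letters searched were TTATGTAA on both strands, and the E-box CACGTG, the site of CLOCK and BMAL1, was searched in the same way. The 250 bases before the Per3 start in RefSeq (GRCm38.p6, chr4:151044666-151044915, minus strand) read as follows, 5′ to 3′, with the D-box letters in capitals.
Per3: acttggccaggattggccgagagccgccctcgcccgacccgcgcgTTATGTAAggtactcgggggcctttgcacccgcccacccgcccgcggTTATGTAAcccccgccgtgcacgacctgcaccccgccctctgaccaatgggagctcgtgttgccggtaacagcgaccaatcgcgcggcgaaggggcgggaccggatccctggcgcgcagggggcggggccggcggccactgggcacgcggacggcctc
The 2 matches end 197 and 150 bases before the start. A D-box stood in 269 of 32851 RefSeq promoters (0.819%), 6 of which held 2 or more, and in 1 of the 21 promoters of the 16 clock genes with an entry. E-box letters stood in 6.02% of all promoters and in 6 of these 21. Per3 itself was at 3.87 to 6.63 CPM in non-tumour liver and 2.74 to 7.34 CPM in tumours of non-exercised mice. With exercise it was at 20.4, 12.5, 8.91 and 16.9 CPM in non-tumour liver and 22.9, 10.1, 10.3 and 10.8 CPM in tumours. The exercised libraries were above the non-exercised ones in both tissues, and the tumour effects of -0.09 ± 0.34 and -0.12 ± 0.33 were alike in size in non-exercised and exercised mice.

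As a list, 14 of the 19 clock genes had an interaction above 0 and 5 below, with a median of 0.08, beside 55.9% of all genes above 0 and a median of 0.03. None was called, and 10 of the 19 had an interval within 2-fold. The exercise effect itself, exercised minus non-exercised, was above 0 for 13 of the 19 in non-tumour liver and for 13 in tumours. Its medians were 0.42 and 0.62, beside -0.01 and 0.01 for all genes. Of the 17 clock output genes 6 were above 0 and 11 below, with a median interaction of -0.05.

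Usp2, a clock-driven deubiquitinase, was the only gene that passed the exercise comparison in non-tumour liver (1 of 14333, 0.00698%), and no gene passed it in tumours (0%). It was at 2.16, 2.83, 1.76 and 2.90 CPM in non-tumour liver of non-exercised mice and at 0.798, 1.04, 1.13 and 1.10 CPM in their tumours. The exercised arm held 40.9, 14.6, 7.73 and 12.4 CPM in non-tumour liver and 3.32, 4.17, 4.12 and 3.31 CPM in tumours. No library of one of these 4 groups fell within the range of another group. Usp2 rose with exercise in non-tumour liver by 2.96 ± 0.41 (edgeR adjusted p = 0.0382), while in tumours the exercise effect was 1.86 ± 0.43 (adjusted p = 0.229). It fell in tumours of both arms, by 1.23 ± 0.44 in non-exercised mice (adjusted p = 0.0409) and by 2.34 ± 0.39 in exercised mice (adjusted p = 0.00122). The interaction of -1.10 ± 0.58 had an interval of -2.35 to 0.14 and an unadjusted p of 0.0788. The call of Usp2 in non-tumour liver was kept with RLE and upper-quartile scaling and with DESeq2, but it was not stable. It was lost with limma-voom, without the filter on low counts and with the block on mouse number. Leaving out any single non-tumour library of non-exercised mice, or any single tumour of exercised mice, also removed it. The same held without the tumour of non-exercised mouse 1 or 4 and without both tumour libraries numbered 3. Coq10b, a coenzyme Q gene with a daily rhythm in liver, and Gys2, liver glycogen synthase, had interactions of -0.79 ± 0.40 and 0.68 ± 0.35. Among 18 ubiquitin ligases and proteases of E2F1 and Myc, 10 were above 0 and 8 below (median 0.04), and the interval lay within 2-fold for 16.

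The smallest p of the interaction belonged to Cdk2, the kinase that with cyclins E and A drives entry into and passage through S phase. Cdk2 (ENSMUSG00000025358.17, GRCm39 chr10:128533808-128540900, minus strand) was at 11.2, 11.6, 11 and 11.8 CPM in non-tumour liver of non-exercised mice and at 13.6, 16.1, 14.6 and 14.2 CPM in their tumours. In the exercised arm it was at 12.8, 12.8, 14.5 and 13.7 CPM in non-tumour liver and at 11.5, 11.8, 14 and 12.9 CPM in tumours. All non-exercised tumours were above their non-tumour pieces, while the exercised groups overlapped. Cdk2 rose in tumours of non-exercised mice by 0.36 ± 0.09 (edgeR adjusted p = 0.00558), and its tumour effect in exercised mice was -0.10 ± 0.09 (adjusted p = 0.402). The interaction was -0.46 ± 0.12, with an interval of -0.72 to -0.20, an unadjusted p of 0.00174 and an adjusted p of 1. The 4 differences within exercised mice (-0.15 to -0.05) were all below the 4 of non-exercised mice (0.27 to 0.48).

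The Cdk2 promoter is shown because Cdk2 led the list by p and its promoter holds letters of the kind that E2F binds. The letters searched were TTTCCCGC, TTTGGCGC, TTTCGCGC and TTTGCCGC on both strands, and capitals mark the match in the 250 bases before the RefSeq start (GRCm38.p6, chr10:128705052-128705301, minus strand), 5′ to 3′.
Cdk2: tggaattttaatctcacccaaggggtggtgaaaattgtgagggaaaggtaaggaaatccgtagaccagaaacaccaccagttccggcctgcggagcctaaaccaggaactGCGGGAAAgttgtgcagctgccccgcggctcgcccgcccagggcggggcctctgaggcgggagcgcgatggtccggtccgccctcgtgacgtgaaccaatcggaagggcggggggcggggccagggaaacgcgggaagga
The match, GCGGGAAA, ends 132 bases before the start. These letters stood in 611 of all 32851 RefSeq promoters (1.86%) and in 416 of the 13794 promoters of genes tested here (3.02%). Of the 33 promoters of S phase genes with an entry 8 held them (24.2%), and of 26 promoters of G2 and M phase genes 1 did (3.85%). A match describes the letters only.

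Other replication and division genes stood among the 24 of smallest p. Prim1, the catalytic subunit of DNA primase, was at 2.79, 3.10, 2.77 and 4.28 CPM in non-tumour liver and 4.85, 7.03, 4.72 and 4.77 CPM in tumours of non-exercised mice. Exercised mice held 4.57, 4.90, 4.86 and 4.56 CPM and 5.46, 3.88, 3.66 and 4.60 CPM. Non-tumour liver of exercised mice was thus above that of non-exercised mice in every library, and the exercised tumours spread on both sides of their non-tumour pieces. Its interaction was -0.83 ± 0.26 (unadjusted p = 0.00673 in edgeR). Hells, a chromatin remodeller needed for DNA methylation in dividing cells, was at 1.36 to 2.7 CPM in non-tumour liver and at 5.13, 7.45, 4.81 and 4.98 CPM in tumours of non-exercised mice. In exercised mice the values were 3.52, 5.15, 2.25 and 2.64 CPM in non-tumour liver and 4.11, 4.46, 3.40 and 3.37 CPM in tumours, with overlap. Hells rose in tumours of non-exercised mice by 1.43 ± 0.27 (adjusted p = 0.0014), its effect in exercised mice was 0.18 ± 0.26 (adjusted p = 0.637), and the interaction was -1.25 ± 0.37. Kif23, a kinesin of the cytokinetic midbody, rose in tumours of both arms, by 2.22 ± 0.29 and 1.04 ± 0.29 (adjusted p = 0.000371 and 0.0136), with an interaction of -1.18 ± 0.40. All had an interaction adjusted p of 1, and without both tumour libraries numbered 3 the values were -0.52 for Cdk2, -0.80 for Prim1, -1.26 for Hells and -1.22 for Kif23.

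Of the 35 E2F targets and S phase genes, 33 had an interaction below 0 and 2 above, with a median of -0.39, beside 44.1% of all genes below 0. None was called (0% of all genes), and 4 had an unadjusted p under 0.05, all below 0, where 0.649% of all genes did. The members share the same 16 libraries, so their agreement is not a set of independent observations. In tumours of non-exercised mice 21 of the 35 rose and 1 fell (median 0.66), where 17% of all genes were called higher and 16.6% lower. In tumours of exercised mice 9 rose and 3 fell (median 0.19), where 17.4% of all genes were called higher and 14.4% lower. Of the calls, 13 were in non-exercised mice alone, 3 in exercised mice alone and 9 in both arms. The shares of all genes called in these ways were 9.38%, 7.63% and 24.2%. The exercise effect was above 0 for 28 of the 35 in non-tumour liver (median 0.12) and for 3 in tumours (median -0.25). The medians of all genes were -0.01 and 0.01. Summed over the list, non-tumour liver of exercised mice 1 to 4 held 437, 338, 293 and 286 CPM, with mouse 1 the highest of the 16 libraries. Mcm4, a subunit of the replicative helicase, rose in tumours of non-exercised mice by 0.46 ± 0.16 (adjusted p = 0.0427), was -0.08 ± 0.16 in exercised mice (adjusted p = 0.727) and had an interaction of -0.54 ± 0.23. The median difference over the list in each mouse was 0.66, 1.15, 0.45 and 0.29 in non-exercised and 0.27, 0.28, 0.29 and 0.36 in exercised mice, which overlap. Of the 35 intervals 11 lay within 2-fold.

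All 28 genes of G2 and M phase rose in tumours of both arms, where 17% and 17.4% of all genes were called higher, with median effects of 2.69 without and 2.19 with exercise. The interaction was below 0 for 27 of the 28, with a median of -0.63. None was called, 1 (Aurka) had an unadjusted p under 0.05, and none of the 28 intervals lay within 2-fold. Aurka, a kinase of the mitotic spindle, was at 1.36 to 2.21 CPM in non-tumour liver and 11.2, 11.5, 6.46 and 8.39 CPM in tumours of non-exercised mice. With exercise it was at 1.28 to 3.10 CPM in non-tumour liver and 4.36, 7.30, 3.25 and 5.02 CPM in tumours. The tumours were above non-tumour liver in every library of both arms, and the interaction was -1.01 ± 0.44 (unadjusted p = 0.0361). Ube2c, the ubiquitin-conjugating enzyme of the anaphase-promoting complex, rose by 3.12 ± 0.33 and 2.17 ± 0.33 (adjusted p = 0.000281 and 0.000677), with an interaction of -0.95 ± 0.46. Summed over the list, tumours held 281 to 557 CPM without exercise and 149 to 310 CPM with it, and non-tumour liver 33.2 to 106 and 36 to 109 CPM. The median difference over the list was 3.04, 4.14, 2.00 and 1.59 in non-exercised mice 1 to 4 and 2.86, 1.53, 1.93 and 2.47 in exercised mice, which overlap. Without both tumour libraries numbered 3, 27 of 28 were again below 0, with a median of -0.58, and for S phase 33 of 35, with a median of -0.33. Without both mice numbered 3 the counts below 0 were 27 of 28 and 35 of 35, with medians of -0.71 and -0.43. The 26 Myc targets and ribosome biogenesis genes split into 13 above and 13 below 0, with a median of 0.00.

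**Figure D3:**
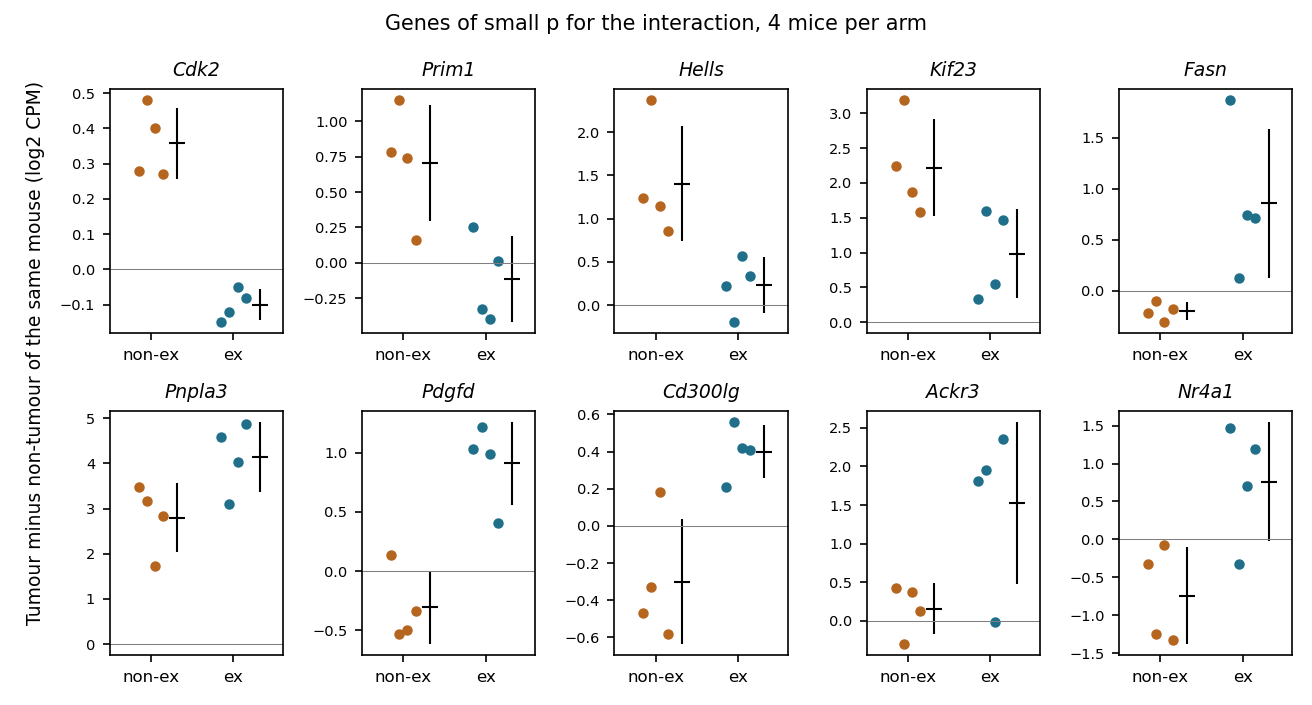
Tumour minus non-tumour difference in log2 CPM of each mouse (points, mice 1 to 4 from left to right) by arm, with mean and SD, for 10 genes of small unadjusted p. Cdk2 lies at 0.27 to 0.48 in non-exercised and -0.15 to -0.05 in exercised mice, and Fasn at -0.31 to -0.10 and 0.12 to 1.87, none of which passed the adjusted test.

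Most lipid genes had an interaction above 0, with none called. Fasn, the fatty acid synthase, was at 886, 999, 842 and 1320 CPM in non-tumour liver and 759, 933, 681 and 1160 CPM in tumours of non-exercised mice. The exercised arm held 388, 933, 658 and 757 CPM in non-tumour liver and 1420, 1010, 1100 and 1240 CPM in tumours. All exercised tumours were above all exercised non-tumour pieces, and the non-exercised groups overlapped. Fasn rose in tumours of exercised mice by 0.80 ± 0.24 (edgeR adjusted p = 0.02), its effect in non-exercised mice was -0.20 ± 0.24 (adjusted p = 0.559), and the interaction was 1.0 ± 0.34 with an interval of 0.28 to 1.72 (unadjusted p = 0.00963, adjusted p = 1). Non-tumour liver of exercised mouse 1 was the lowest of the 16 libraries for Fasn. The interaction was 0.93 without both tumour libraries numbered 3 and 0.98 without both mice.

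Pnpla3, a lipase of lipid droplets induced by lipogenic signals, was at 1.76, 2.77, 3.12 and 2.85 CPM in non-tumour liver and 20.8, 25.7, 10.6 and 20.9 CPM in tumours of non-exercised mice. In the exercised arm it was at 0.617, 1.65, 0.665 and 0.385 CPM and, in tumours, at 17.3, 15, 12.5 and 14.2 CPM. Non-tumour liver of exercised mice was lower than that of non-exercised mice in every library, while the tumours overlapped. Pnpla3 rose in tumours of both arms, by 2.88 ± 0.32 and 4.12 ± 0.36 (adjusted p = 0.000286 and 0.000146), and the interaction was 1.23 ± 0.47 (unadjusted p = 0.02). Fabp4, a fatty acid carrier of adipocytes, macrophages and endothelium, rose in tumours of exercised mice by 1.14 ± 0.29 (adjusted p = 0.0094), against 0.08 ± 0.28 in non-exercised mice (adjusted p = 0.862), with an interaction of 1.06 ± 0.40. Pparg, the receptor that activates lipid storage genes, fell in tumours of non-exercised mice by 0.96 ± 0.23 (adjusted p = 0.00593), was -0.40 ± 0.23 in exercised mice (adjusted p = 0.196) and had an interaction of 0.56 ± 0.32. The interaction without both tumour libraries numbered 3 was 1.10 for Pnpla3, 1.47 for Fabp4 and 0.51 for Pparg, and without both mice it was 0.89, 1.38 and 0.65.

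Of 20 fatty acid synthesis genes 17 had an interaction above 0 (median 0.19) and of 15 lipid droplet and PPARG target genes 14 did (median 0.42), beside 55.9% of all genes, with none called. Without both tumour libraries numbered 3 the counts above 0 were 12 of 20 and 12 of 15, with medians of 0.19 and 0.31, and without both mice they were 15 of 20 and 12 of 15, with medians of 0.10 and 0.32. The median difference over the fatty acid synthesis genes was -0.08, 0.21, -0.07 and -0.02 in non-exercised mice 1 to 4 and 1.27, -0.02, 0.79 and 0.64 in exercised mice. For the lipid droplet list it was -1.68, -0.47, -0.20 and -0.66 without and -0.48, -0.61, -0.11 and -0.38 with exercise. The arms overlapped for both lists, and non-exercised mouse 1 was the lowest for lipid droplets. Of 26 fatty acid oxidation and ketogenesis genes 21 were above 0 (median 0.15), and 19 were in either alternative (median 0.14 in both). Among them Vnn1, a pantetheinase under PPARα control, fell in tumours of non-exercised mice by 0.61 ± 0.11 (adjusted p = 0.00127), was -0.17 ± 0.11 in exercised mice (adjusted p = 0.252) and had an interaction of 0.44 ± 0.16. Cpt1a, which admits fatty acids to the mitochondrion, had an interaction of -0.31 ± 0.20. Cholesterol synthesis genes rose in tumours of both arms, 21 of 24 in each, where 17% and 17.4% of all genes were called higher, with median effects of 1.49 and 1.67. Their median interaction was 0.03, and it was -0.05 without both tumour libraries numbered 3 and -0.14 without both mice.

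All 21 nuclear genes of oxidative phosphorylation had an interaction above 0, by 0.02 to 0.39 (median 0.13), beside 55.9% of all genes, and all 21 intervals lay within 2-fold. Without both tumour libraries numbered 3 all 21 were above 0 (median 0.15), and without both mice 16 were (median 0.10). In tumours 21 fell in non-exercised mice (median -0.61) and 20 in exercised mice (median -0.46), where 16.6% and 14.4% of all genes were called lower. The median difference over the list was -0.92, -0.74, -0.47 and -0.51 in non-exercised mice 1 to 4 and -0.73, -0.48, -0.26 and -0.46 in exercised mice, which overlap. Ndufs3, a complex I subunit, fell by 0.51 ± 0.07 and by 0.30 ± 0.07 (adjusted p = 0.000517 and 0.00735), with an interaction of 0.21 ± 0.10, and Cox6c, of complex IV, had an interaction of 0.39 ± 0.19. The 6 mitochondrially encoded genes tested were above 0 as well (median 0.27), with mt-Cytb at 0.38 ± 0.27. The summed share of mitochondrially encoded counts fell from non-tumour liver to tumour by 1.89 ± 1.33 percentage points in non-exercised mice and by 1.47 ± 0.456 in exercised mice (SD, n = 4 mice each). The arms differed by 0.425 points (exact permutation test, two-sided, p = 0.543, where 70 splits allow a smallest p of 0.0286), and it was 0.943 after adjustment over 4 such shares. Albumin mRNA rose by 7.46 ± 3.26 and 6.96 ± 2.43 percentage points of all counts (exact p = 0.771).

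Markers of the cells between hepatocytes were described as lists, since in bulk tissue fewer cells of a type and less RNA per cell cannot be told apart. All 10 MHC class II and dendritic cell genes and all 14 genes of lipid-associated and monocyte-derived macrophages had an interaction above 0, with medians of 0.62 and 0.59, and 20 of 22 stellate cell and fibrosis genes did, with a median of 0.42, beside 55.9% of all genes. Other lists lay nearer to 0. The median was -0.02 for 13 Kupffer cell genes (6 above 0), -0.05 for 8 B and plasma cell genes (4 above 0), 0.06 for 13 genes of sinusoidal endothelium (10 above 0) and 0.21 for 8 neutrophil genes (7 above 0). None was called, and of the 46 genes of the MHC class II, macrophage and stellate cell lists none reached an unadjusted p under 0.05 and 1 had an interval within 2-fold. The exercise effect in non-tumour liver was below 0 for every member of these 3 lists, with medians of -1.35, -0.97 and -0.54. In tumours the medians were -0.79, -0.41 and -0.23. The medians of all genes were -0.01 and 0.01. Lists were not exclusive: Spp1 stood in both the macrophage list and that of cholangiocytes and progenitors. Of the macrophage list, Cd9 had tumour effects of 1.57 ± 0.37 and 2.25 ± 0.38 in non-exercised and exercised mice. Those of Trem2 were -0.59 ± 0.53 and 0.42 ± 0.55. Which cells held these transcripts was not tested. H2-Ab1, an MHC class II chain, was at 93.1, 36.0, 148 and 91.7 CPM in non-tumour liver of non-exercised mice and at 29.1, 49.9, 20.3 and 22.9 CPM in that of exercised mice. Its tumours held 64.5, 44.6, 162 and 68.7 CPM without and 75.9, 50.7, 40.3 and 24.3 CPM with exercise. The groups overlapped in both tissues, with non-exercised mouse 3 high in both of its pieces. The interaction was 0.76 ± 0.67, and 0.86 without both mice numbered 3.

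Summed CPM of the MHC class II list was 211 to 832 and 139 to 304 in non-tumour liver of non-exercised and exercised mice, and 280 to 941 and 158 to 437 in tumours. Non-exercised mouse 3 held the highest sum in each tissue, 832 and 941 CPM. Without both mice numbered 3 the median interactions were 0.67 for MHC class II, 0.52 for macrophages and 0.50 for stellate cells, and those of Kupffer cells and sinusoidal endothelium were 0.27 and 0.29, with all 13 genes of each above 0. For B and plasma cells it was then -0.03, and for the 4 neutrophil genes still tested -0.32. Leaving out only the tumours numbered 3, with the high non-tumour piece of non-exercised mouse 3 still in the comparison, gave 1.11, 0.69 and 0.63 for the first 3 lists. The median difference over the MHC class II genes was -0.50, 0.40, 0.16 and -0.35 in non-exercised and 1.22, 0.01, 0.81 and 0.02 in exercised mice, which overlap.

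The 11 T and NK cell genes tested had a median interaction of 0.35, with 8 above 0. It was 0.40 over the 10 still tested without both mice numbered 3, and 1.17 where only their tumours were left out. Both pieces of non-exercised mouse 3 were high for this list, at 31.4 CPM in non-tumour liver and 27.8 CPM in the tumour. The summed level of T and NK cell genes was low, 5.92 to 31.4 CPM in non-tumour liver and 5.62 to 27.8 CPM in tumours of non-exercised mice. In exercised mice it was 5.48 to 8.08 CPM and 5.77 to 10.2 CPM. The part of these cells in the other results was not tested.

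**Figure D4:**
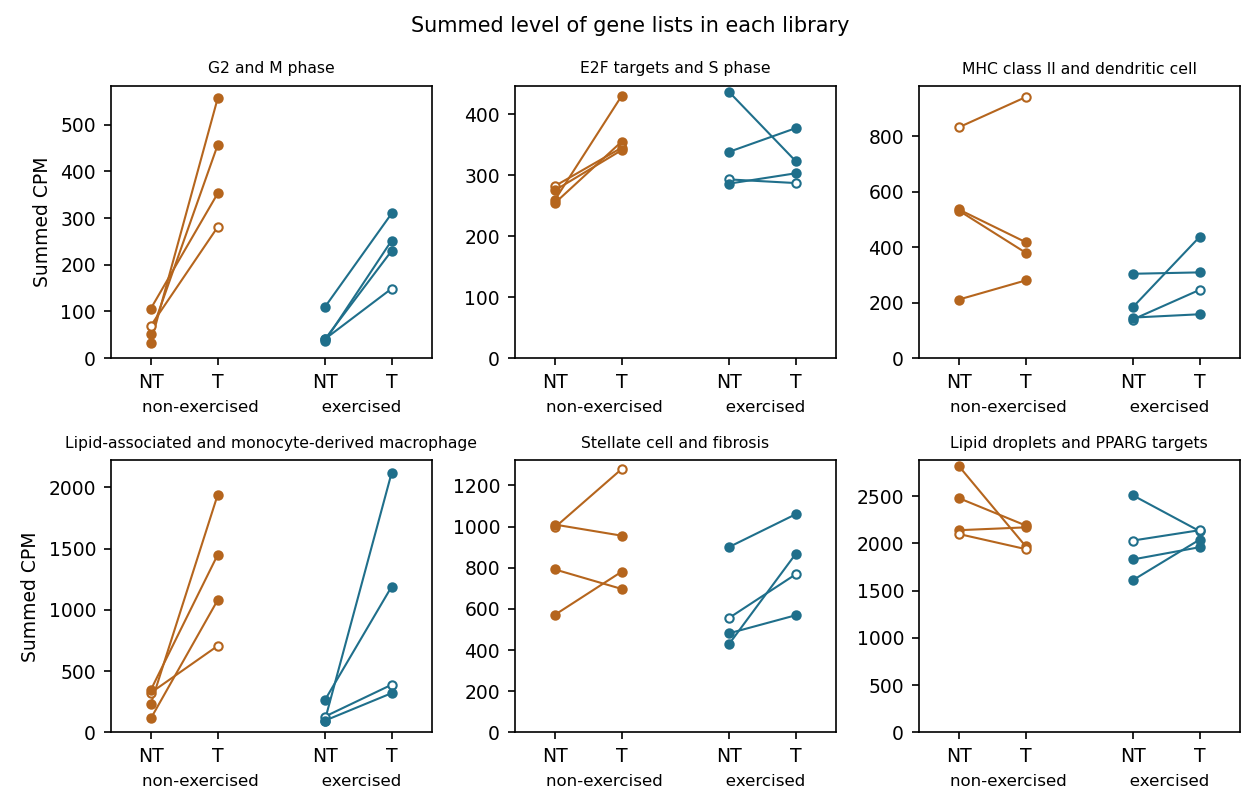
Summed CPM of 6 gene lists in non-tumour liver (NT) and tumour (T) of each mouse, joined by a line, with open symbols for mouse 3 of each arm. G2 and M phase genes sum to 281 to 557 CPM in tumours of non-exercised and 149 to 310 CPM in those of exercised mice, and MHC class II genes to 211 to 832 and 139 to 304 CPM in non-tumour liver.

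All 11 vascular endothelium genes tested were above 0 (median 0.23), beside 55.9% of all genes. The tumour effect was called higher for 6 in non-exercised and 8 in exercised mice, where 17% and 17.4% of all genes were, and the difference between these counts was not tested. All 11 were above 0 without both tumour libraries numbered 3 (median 0.49), and 10 without both mice (median 0.44). Cd34, a sialomucin of capillary endothelium and progenitors, rose by 1.64 ± 0.45 and 3.04 ± 0.48 (adjusted p = 0.0124 and 0.000914), with an interaction of 1.40 ± 0.65 (unadjusted p = 0.0473). Cd300lg, a glycoprotein of capillary endothelium, was at 13.8, 12.9, 13.2 and 16.7 CPM in non-tumour liver and 9.92, 10.3, 14.9 and 11.1 CPM in tumours of non-exercised mice. Exercised mice held 19.3, 13.5, 13.5 and 15.4 CPM and 22.3, 20.0, 18.1 and 20.5 CPM. The exercised tumours were above all 4 non-exercised tumours, and non-tumour liver overlapped. Its interaction was 0.68 ± 0.20. The values were, without both tumour libraries numbered 3, 1.53 for Cd34 and 0.88 for Cd300lg, and without both mice 1.5 and 0.84.

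Pdgfd, a ligand of the PDGF receptor β, was at 2.22, 2.23, 3.78 and 3.34 CPM in non-tumour liver and 2.45, 1.51, 2.64 and 2.62 CPM in tumours of non-exercised mice. With exercise it was at 1.6, 1.8, 1.33 and 1.54 CPM and, in tumours, at 3.38, 4.35, 2.74 and 2.08 CPM. Non-tumour liver was lower in every exercised library than in every non-exercised one, and the exercised tumours were above their non-tumour pieces. Pdgfd rose in tumours of exercised mice by 1.0 ± 0.27 (adjusted p = 0.0119), was -0.33 ± 0.26 in non-exercised mice (adjusted p = 0.349) and had an interaction of 1.32 ± 0.37. Ackr3, a scavenger receptor of the chemokine CXCL12, was at 1.11 to 1.72 CPM in non-tumour liver and 1.30 to 2.34 CPM in tumours of non-exercised mice. The exercised arm held 0.679, 0.649, 0.717 and 0.385 CPM and 2.64, 2.84, 0.711 and 2.40 CPM. The tumour of exercised mouse 3 stayed at the level of its non-tumour piece. Ackr3 had the highest interaction among the 24 genes of smallest p, 1.63 ± 0.52, with a tumour effect of 1.81 ± 0.38 in exercised mice (adjusted p = 0.00348). It was 1.84 without both tumour libraries numbered 3 and 2.06 without both mice, and for Pdgfd these values were 1.46 and 1.22.

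The remaining genes of smallest p had varied roles. Of the 24, 15 had an interaction above 0 and 9 below, from -1.25 to 1.63, with unadjusted p from 0.00174 to 0.0134, and in 19 the differences within mice did not overlap. They were chosen by this p, so these values only describe them. The tumour effect was called in exercised mice alone for 13, in non-exercised mice alone for 6, in both for 2 (Dpysl2 and Kif23) and in neither for 3. Of all genes, 7.63% were called in exercised mice alone, 9.38% in non-exercised mice alone and 24.2% in both. None of the 24 was called for the interaction. The interaction was above 0 for Dpysl2, which binds tubulin (0.87), B4galt4, a galactosyltransferase (1.13), Ptges, the prostaglandin E synthase (1.51), and Cdc42ep5, an effector of the small GTPase CDC42 (1.27). It was also above 0 for Ly6a, the stem and endothelial surface protein Sca-1 (1.13), Nr4a1, an immediate early nuclear receptor (1.55), and Klc1, a kinesin light chain (0.34). The zinc finger gene Zscan21 (0.40), Dixdc1 of WNT signalling (0.50), Sqstm1, the autophagy receptor p62 (0.46), and Mif, a cytokine (0.50), completed the values above 0. It was below 0 for Shld2, of the shieldin complex at DNA breaks (-0.54), Shoc2, a scaffold of RAS and RAF signalling (-0.42), Slc17a1, a urate and phosphate transporter (-0.62), Vps13a, a lipid transfer protein (-0.38), and Myef2 (-0.47). An interaction above 0 is not a higher level: in non-tumour liver Dpysl2 was at 3.64 ± 0.517 CPM without and 2.26 ± 0.333 CPM with exercise (SD, n = 4 mice each), B4galt4 at 1.97 ± 0.0978 and 1.27 ± 0.328 CPM and Ptges at 2.07 ± 0.0978 and 1.34 ± 0.39 CPM.

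Nr4a1, which responds within minutes to hormones and exertion, was at 5.29, 8.53, 5.04 and 15.6 CPM in non-tumour liver and 4.22, 3.54, 4.81 and 6.14 CPM in tumours of non-exercised mice. In the exercised arm it was at 2.53, 8.19, 3.84 and 4.40 CPM and 7.18, 6.55, 6.35 and 10.2 CPM. All groups but the 2 sets of tumours overlapped, where each exercised library was above each non-exercised one. Its tumour effect was called in neither arm, at -0.88 ± 0.38 and 0.67 ± 0.38 (adjusted p = 0.0839 and 0.189), and the interaction was 1.55 ± 0.53, or 1.64 and 1.73 without the tumours and without the mice numbered 3.

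**Figure D5:**
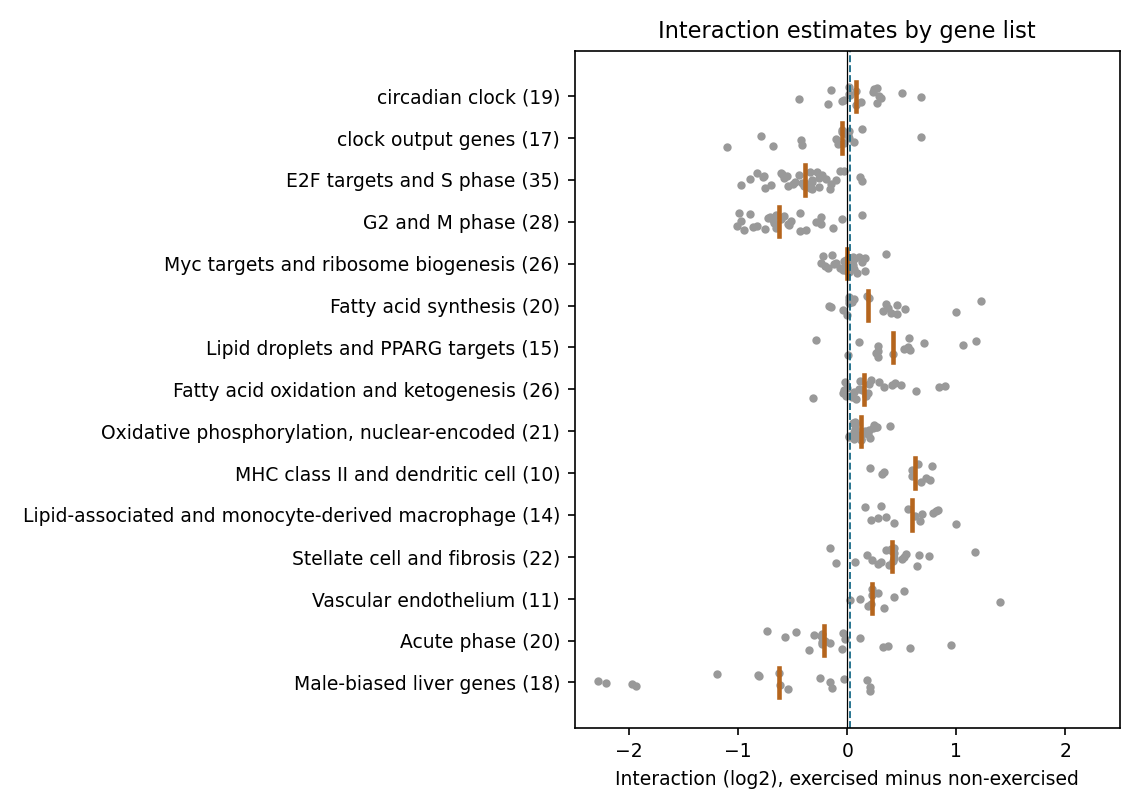
Interaction (log2, exercised minus non-exercised tumour effect) of each tested member of 15 gene lists (grey points, number tested in brackets), with the list median (brown bar) and the median of all 14333 genes at 0.03 (dashed line). The medians run from -0.63 for G2 and M phase and for male-biased genes to 0.62 for MHC class II, and 1 member lies beyond the axis.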

How the data were processed

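Poly(A) RNA of frozen mouse liver was sequenced from a stranded library (RNAiso Plus extraction and TruSeq Stranded mRNA, per the labels' protocols). Per the submitters' processing notes, reads were trimmed with Trim Galore 0.6.10, aligned with STAR 2.7.11a to GRCm39 and counted with featureCounts. The deposited values are raw counts per gene, made by the authors with featureCounts 2.0.5 on exons, strand setting 2, with the GENCODE vM27 annotation, per the file headers. They were analysed as deposited, and the 4 normal-diet libraries entered only the alternative fit of all 20.

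Groups came from the sample titles. The test was edgeR 4.0.16 (R 4.3.3), with TMM scaling, filterByExpr (minimum count 10, minimum total 15), 4 group means, a robust quasi-likelihood fit and Benjamini-Hochberg adjustment over all 14333 genes, threshold 0.05. Depth was 16471378 to 20271948 counts, which sets the precision of low genes. Differences within mice used log2 CPM with a prior count of 2. Within an arm, a tumour and a non-tumour piece that share a mouse number were read as 1 mouse: their deviations from the group means correlated at -0.09 to 0.44, above 0.1 in 4 of 8 pairs. The main fit did not use this pairing. Its standard errors, intervals and p-values thus treat the pieces of a mouse as independent. The 48 gene lists and the members were chosen with earlier results of these data known. Named genes were the 10 of the title, the 24 of smallest p at a mean of 1 CPM or more and up to 2 of smallest p in each list. Promoter sequences are from RefSeq (GRCm38.p6), and gene coordinates are those of the deposited files. The test was checked on simulated counts, where 8 of 96 calls were false. Alternatives were other scalings and filters, DESeq2 1.42.0, limma 3.58.1 (voom), all 20 libraries, a replicate block, leaving out each library and, chosen after seeing the data, leaving out both tumour libraries numbered 3 or both pieces of both mice numbered 3.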

Additional observations from a re-analysis of the deposited data

Results flagged for a closer look

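In 12 of 152 groups of 4 libraries, 1 library stood apart from the other 3 by Dixon's criterion, which chance meets in about 1 group in 20. In tumours of exercised mice, mouse 1 held 22.9 CPM of Per3 against 10.1 to 10.8, 113 CPM of Dbp against 25.3 to 31.3, 45.8 CPM of Shld2 against 51.1 to 51.9 and 10.5 CPM of Cdc42ep5 against 5.93 to 6.40. In tumours of non-exercised mice, mouse 2 held 1.51 CPM of Pdgfd against 2.45 to 2.64, 7.45 CPM of Hells against 4.81 to 5.13 and 7.03 CPM of Prim1 against 4.72 to 4.85. In non-tumour liver of non-exercised mice, mouse 2 held 21.3 CPM of Cry1 against 15.4 to 16.1, mouse 3 held 1.11 CPM of Ackr3 against 1.63 to 1.72, and mouse 1 held 31.8 CPM of Shoc2 against 35.2 to 35.6 and 12.7 CPM of Myef2 against 15.6 to 15.8. In non-tumour liver of exercised mice, mouse 3 held 22.7 CPM of Klc1 against 18.8 to 18.9. Of these, Dbp changed the sign of its interaction when the library that stood apart was left out.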

How the results depend on the processing

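The interaction gave 0 calls in each of the 26 alternative settings, with 193 to 550 genes at an unadjusted p under 0.05 (253 with RLE and with upper-quartile scaling, 522 without the filter on low counts). Leaving out 1 library at a time gave 0 to 0 calls, and the tumour of non-exercised mouse 3 was the library whose absence gave 550. With mouse as a fixed replicate block the count was 0, with 378 genes at an unadjusted p under 0.05. The block changed no call of a tumour effect count by over 1.5 times (5111 and 4725 genes in non-exercised and exercised mice). In the exercise comparisons the block on mouse number gave 1 and 0 calls, but in non-tumour liver that gene was Cyp2b10 rather than Usp2.

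Tumour effects numbered 3352 to 5590 genes in non-exercised and 3207 to 5167 in exercised mice when 1 library was left out. The exercise comparison was unstable. In non-tumour liver it called 85 genes with DESeq2, 0 with limma-voom, 2 with all 20 libraries, 0 without both tumour libraries numbered 3 and 40 without both mice numbered 3, and 0 to 45 when 1 library was left out, 45 without non-tumour liver of exercised mouse 3. In tumours it called 2 genes with upper-quartile scaling, 67 with DESeq2, 5 without the filter, 3 with all 20 libraries, 19 without both tumour libraries numbered 3 and 34 without both mice. Leaving out 1 tumour gave 0 to 20 calls in tumours, 12 without that of non-exercised mouse 3 and 20 without that of exercised mouse 3. The cause was not tested.

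Of 69 genes named, 63 kept the sign of the interaction in every setting, and none was called in any. Without both tumour libraries numbered 3 Myc was at 0.08, Per3 at 0.07 and Arntl at -0.11, and Per3 was at 0.00 with limma-voom. Leaving out 1 library gave -0.56 to 0.12 for Myc, -0.04 to 0.34 for Per1, -0.27 to 0.11 for Per2, -0.41 to 0.19 for Per3, -0.33 to 1.02 for Dbp and -0.22 to 0.40 for Arntl. The differences between the arms in the shares of counts also changed sign when 1 mouse was left out, within -0.0586 to 0.891 percentage points for mitochondrially encoded counts, -1.67 to 0.959 for albumin, -1.40 to 2.84 for the 50 most abundant genes and -0.416 to 0.131 for major urinary protein genes.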

Other observations

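Several other lists had tumour effects of like size in both arms. Integrated stress response genes had median tumour effects of 0.55 and 0.67 in non-exercised and exercised mice and a median interaction of 0.07. ERK feedback genes rose in tumours for 10 of 13 in both arms, where 17% and 17.4% of all genes were called higher (medians 1.11 and 1.04), with a median interaction of -0.11. Bile acid synthesis and transport genes fell for 8 of 16 in both arms, where 16.6% and 14.4% of all genes were called lower (medians -0.98 and -1.02), with a median interaction of 0.09. Xenobiotic metabolism genes fell for 10 of 18 in non-exercised and 13 in exercised mice (medians -1.12 and -1.09), with a median of -0.02. For p53 targets the medians were 0.52 and 0.65, with a median interaction of 0.06. Lists with smaller tumour effects were the interferon-stimulated genes, with medians of 0.19 and 0.10 and an interaction of -0.01, and the NRF2 targets, with medians of -0.34 and -0.09. The NRF2 targets had a median interaction of 0.24, with 14 of 17 above 0, and their median differences per mouse overlapped (-0.51 to -0.03 without and -0.31 to 0.58 with exercise). No interaction was called in any of these lists.

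The 18 male-biased liver genes had the lowest median with that of G2 and M phase, -0.63, but it was 0.01 with mouse as a block, -0.30 without both tumour libraries numbered 3 and -0.47 without both mice. Hsd3b5, a male-specific steroid dehydrogenase, was at 183, 0.15, 4.35 and 0.22 CPM in non-tumour liver of exercised mice 1 to 4 and at 0.109 to 1.41 CPM in that of non-exercised mice, so mouse 1 alone was high. Acute phase genes had a median interaction of -0.21, with 15 of 20 below 0, beside 44.1% of all genes. Without both tumour libraries numbered 3, 11 of the 20 were below 0 (median -0.15), and without both mice 14 were (median -0.25). Socs3, the feedback inhibitor of cytokine signalling, had an interaction of -0.74 ± 0.31 and Steap4, a metalloreductase of inflammation, of -0.47 ± 0.25. All 6 erythroid genes tested were below 0, with a median of -0.46, beside 44.1% of all genes. Their median difference was -0.10, -0.98, -0.57 and 0.43 in non-exercised mice 1 to 4 and -2.12, -0.70, -0.01 and 0.12 in exercised mice, which overlap. Non-tumour liver of exercised mouse 1 held the highest sum of the 16 libraries, 604 CPM. Without both tumour libraries numbered 3, 5 of the 6 were below 0 (median -0.34), and without both mice all 6 were (median -0.80).

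Sds, a serine dehydratase of periportal hepatocytes induced by glucagon, was at 107, 197, 125 and 177 CPM in non-tumour liver and 46.1, 27.8, 66.7 and 61.4 CPM in tumours of non-exercised mice. In exercised mice it was at 349, 344, 192 and 308 CPM and 353, 257, 108 and 162 CPM. It fell in tumours of non-exercised mice by 1.59 ± 0.36 (edgeR adjusted p = 0.00443), was -0.44 ± 0.35 in exercised mice (adjusted p = 0.356) and had an interaction of 1.15 ± 0.49 that was not called (unadjusted p = 0.0353).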
